A study of Mus musculus with 4 samples.

Results

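The cells described here were a stromal population of the mouse testis, picked out by transcripts of Ebf1, Clec3b, Adam12 and Sned1, in testicular organoids (TOs) and in whole testes. Of 41484 cells that passed quality limits in 4 single-cell libraries, 1035 met the rule and are called members below. A member had transcripts of at least 2 of the 4 genes Clec3b, Ebf1, Adam12 and Sned1, had Dcn or Pdgfra, and had no Ptprc, the pan-leukocyte gene. The sum of the smooth muscle genes Acta2, Myh11 and Cnn1 stayed below 8 unique molecular identifiers (UMIs, counted transcript molecules) per 10000 of the cell, and so did that of the steroidogenic genes Cyp11a1 and Hsd3b1. The sum of the matrix genes Mfap2, Mfap4, Olfml3 and Mgp stayed below 8 UMIs. These 16 genes chose the members, so their levels are given as a description and were left out of every count of changed genes.

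TOs were grown from testis cells of ICR mice at 6 days postpartum and the labels give them an age of 28 days, although a protocol label of the same samples names day 21. The testes came from 28-day-old mice. The culture medium contained serum replacement, follicle-stimulating hormone, testosterone and the antioxidants ascorbic acid 2-glucoside, tocopherol acetate and glutathione, and the TOs ended at an air-liquid interface. There were 2 libraries of each kind, TO 1, TO 2, testis 1 and testis 2, and the 2 TO libraries came from separate batches of organoids. The study describes the testis libraries as biological replicates, and the labels do not tie them to named animals or pools. The p-values measure the spread between these libraries only.

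Interstitial stromal cells lie between the seminiferous tubules and around vessels, and as fibroblast-like cells they lay down collagens, proteoglycans and elastic microfibrils. They carry receptors for platelet-derived growth factor, among them Pdgfra, and the stroma of this compartment is known to include progenitors of the Leydig cells that make testosterone. Clec3b encodes tetranectin, a secreted plasminogen-binding lectin, and Ebf1 encodes a transcription factor of stromal and adipogenic lineages. Adam12 encodes a membrane protease, Sned1 an extracellular matrix glycoprotein and Dcn the small proteoglycan decorin, and Gsn encodes the actin-severing protein gelsolin.

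Members numbered 300 in TO 1, 226 in TO 2, 417 in testis 1 and 92 in testis 2, and their summed counts were 1334875, 1402862, 1238785 and 328483 UMIs. The median member held 2875.5 UMIs in TO 1, 5237.5 in TO 2, 2341 in testis 1 and 2627 in testis 2. Testis 2 thus gave the fewest cells and the smallest sum. Mitochondrial genes took a median of 4.33% and 3.71% of a member's UMIs in the TOs and 1.91% and 1.75% in the testes. A doublet caller marked 11% and 6.64% of the TO members and 14.1% and 18.5% of the testis members, which were kept. No member barcode was shared between libraries, and any pair of libraries shared 30 to 55 barcodes in all.

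Transcripts of germ cells were abundant in the testis members. Prm1, which encodes a protamine that packs sperm DNA, stood at 2168 CPM (counts per 1000000 UMIs of the summed cells) in members of testis 1 and 7720.3 CPM in members of testis 2, against 3201 and 21142 CPM in all other cells of those libraries. In the TO members it stood at 0 and 0.713 CPM. After each cell was thinned to 1500 UMIs, 87.5% of the members of testis 1 and 93.5% of those of testis 2 had a Prm1 transcript, and so did 84.1% and 96.0% of the non-stromal cells, which are the kept cells without Dcn and Pdgfra or with Ptprc. All 10 spermatid markers, led by Prm1 in testis 1 and Prm2 in testis 2, were present in both sets of testis members, with a summed level of 5917 and 25386 CPM, whereas the sums in the TO members were 3.00 and 6.42 CPM. The 7 spermatocyte markers, led by Ldhc, summed to 279 and 92 CPM in the TO members and to 2938 and 1991 CPM in the testis members.

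Markers of other somatic cells also differed between libraries. The 9 Sertoli cell markers, led by Aard, summed to 2332 CPM in members of TO 1 and 604 CPM in those of TO 2, against 197 and 107 CPM in the testes. The sum in the members of TO 1 was 101% of that in the other cells of the same library, and Cldn11, a tight junction gene of Sertoli cells, stood at 267 CPM in the members and 290.1 CPM in the others. The 8 Leydig markers summed to 501 and 421 CPM in the TO members and 806 and 2091 CPM in the testis members, with Insl3 most abundant in TO 1, Hsd3b6 in TO 2 and Cyp17a1 in both testes. That sum was 37.9%, 170%, 100% and 175% of the sum in the other cells of TO 1, TO 2, testis 1 and testis 2. The 10 macrophage markers, led by Lyz2 in all but testis 2, summed to 517, 403, 127 and 9.13 CPM in TO 1, TO 2, testis 1 and testis 2. Sums for the 11 endothelial markers, led by Cdh5 in all but testis 2, were 127, 108, 65.4 and 280.1 CPM. In the same order they were 250%, 159%, 46.7% and 246% of the sums in the other cells. The 7 pericyte markers, led by Ndufa4l2 in the testes, summed to at most 103 CPM in any library and Higd1b was at 0 in all. The 9 mesothelial and epithelial markers summed to at most 92.1 CPM, nearly all from Epcam in TO 1, and Msln, Krt7, Krt18 and Krt19 were at 0 in all members. The 5 Schwann cell markers reached at most 34.5 CPM with Foxd3 at 0, and the 5 lymphocyte markers at most 2.25 CPM with Cd3g, Cd79a and Nkg7 at 0. The 7 spermatogonial markers summed to 414, 181, 337 and 298 CPM, with Dazl most abundant in TO 1, Kit in TO 2 and Ddx4 in both testes.

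The marker levels below describe the members and test nothing, since all but Gsn chose them. In the testes Clec3b stood at 879 and 1029 CPM in members and at 14.3 and 38.8 CPM in all other cells, whereas in the TOs it stood at 149 and 79.8 CPM in members and at 37.9 and 67.3 CPM in the others. Gsn, the marker that the rule did not use, stood at 4946 and 8360 CPM in the testis members against 122 and 429.5 CPM in other cells. In the TOs it stood at 2654 and 2189 CPM in members against 1082 and 1319 CPM in the others. Ebf1 was high in members of every library, at 1327, 1489, 1669 and 2079 CPM in TO 1, TO 2, testis 1 and testis 2. Adam12 stood at 384, 442, 329 and 228 CPM and Sned1 at 432, 579, 202 and 113 CPM, so these members of the rule ran higher in the TOs. Dcn stood at 2658, 3123, 3665 and 3952 CPM and Pdgfra at 387, 600, 315 and 274 CPM.

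**Figure D1:**
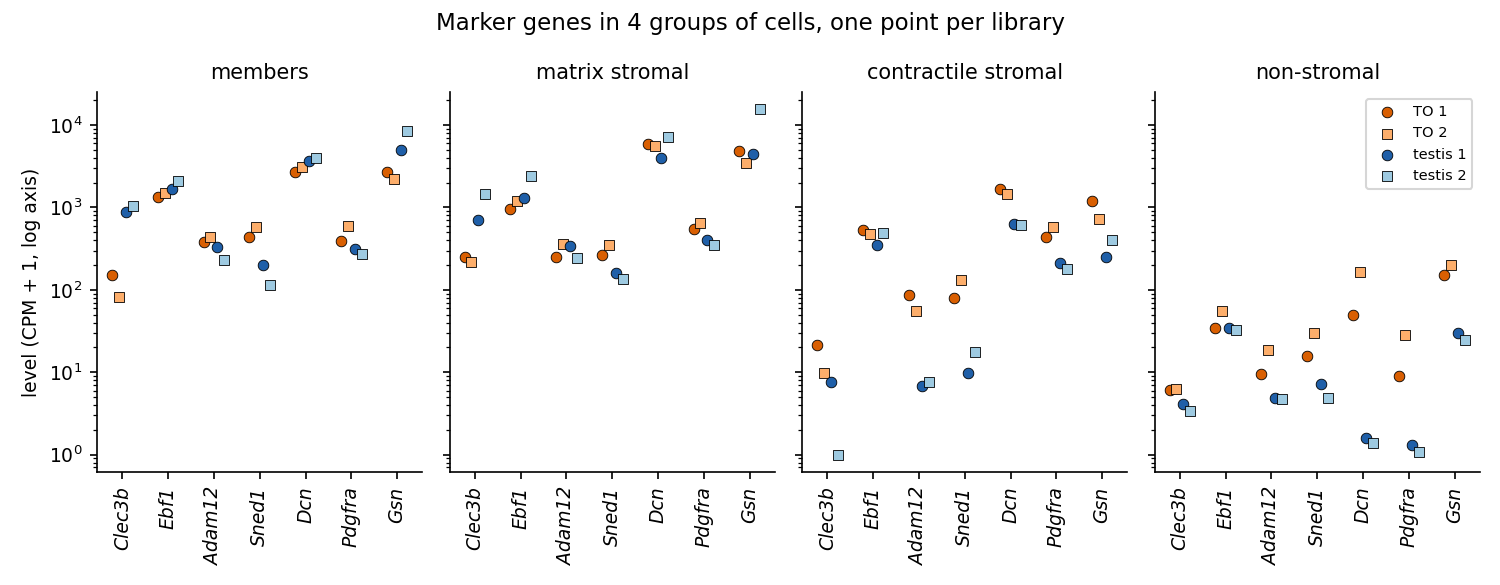
Levels of 7 marker genes (CPM + 1, log axis) in members, in matrix stromal cells, in contractile stromal cells and in non-stromal cells, with a point for each library. In members Clec3b lies between 79.8 and 149 CPM in the TOs and between 879 and 1029 CPM in the testes.

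The TOs held another stromal group with more Clec3b than the members. Matrix stromal cells met the stromal requirements but had 8 or more UMIs of the 4 matrix genes, of which Mgp, an inhibitor of calcification, is the most abundant. Their Clec3b level was 247 and 220 CPM in the TOs and 695 and 1463 CPM in the testes, and Gsn stood at 4771 and 3464 CPM in the TOs. Contractile stromal cells, set apart by at least 8 UMIs per 10000 of Acta2, Myh11 and Cnn1, had 20.5 and 8.8 CPM of Clec3b in the TOs and 6.59 and 0 CPM in the testes. The plot of marker genes by cell group shows Ebf1 and Dcn in all 3 stromal groups and Clec3b in members and matrix stromal cells.

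Under the rule the shares of members overlapped between the conditions, and they depended on the limit on matrix genes and on depth. Members were 2.79% of the kept cells in TO 1 (95% exact Clopper-Pearson interval 2.49 to 3.12), 2.39% in TO 2 (2.09 to 2.72), 3.86% in testis 1 (3.50 to 4.24) and 0.880% in testis 2 (0.710 to 1.08). Intervals cover counting error only. The testis libraries enclosed both TO values. The TO mean of 2.59% ± 0.283 (SD, n = 2) exceeded the testis mean of 2.37% ± 2.11 (SD, n = 2) by 0.219 percentage points, with a two-sided exact permutation p of 1. With 2 libraries against 2 the smallest p that this test can give is 0.333. Read per 10000 UMIs, the limit on matrix genes gave shares of 1.08% and 1.43% in the TOs. In the testes they were then 1.11% and 0.277%, so TO 2 lay above both testis libraries. Without the limit on matrix genes the shares were 12.6% and 28.0% in the TOs and 5.53% and 4.15% in the testes, with a difference of 15.4 percentage points and an exact permutation p of 0.333. With every cell thinned to 1500 UMIs before the rule was applied, the shares were 4.31% and 7.67% in the TOs and 3.78% and 1.82% in the testes, without overlap and with a difference of 3.19 percentage points (exact permutation p of 0.333). Of cells with Dcn or Pdgfra and no Ptprc, members were 3.37% and 3.08% in the TOs and 22.1% and 8.36% in the testes. Such cells numbered 8905 and 7333 in the TOs and 1888 and 1100 in the testes, so the order of the shares depends on the denominator.

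**Figure D2:**
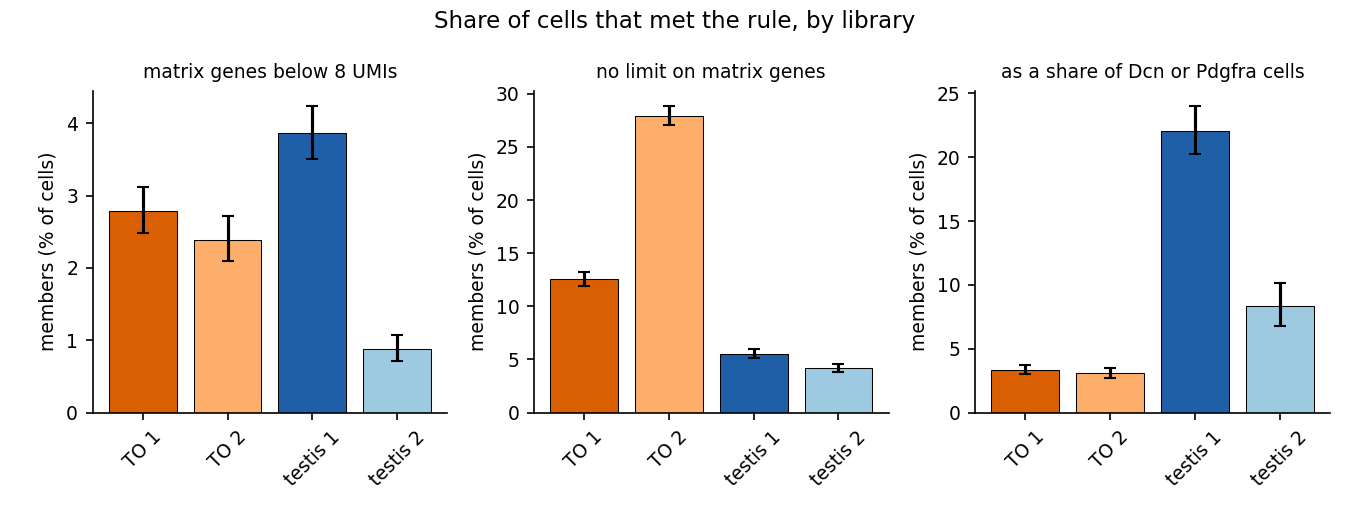
Members as a percent of cells in each library, with 95% exact binomial intervals, under the rule, without its limit on matrix genes and as a share of cells with Dcn or Pdgfra and no Ptprc. Under the rule the TO bars of 2.79% and 2.39% lie between the testis bars of 3.86% and 0.880%.

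Members were not alike in the genes that admitted them. Clec3b was detected in 35.0% and 25.2% of the members of TO 1 and TO 2 and in 82.3% and 82.6% of those of testis 1 and testis 2. Ebf1 was detected in 94.0% to 99.1% of members in all libraries. Among testis members the pair of Clec3b and Ebf1 alone was the most frequent combination, at 35.0% and 44.6%. In TO 2 the most frequent was Ebf1 with Adam12 and Sned1, at 36.3%, and in TO 1 the same trio reached 23.0%. All 4 genes were found in 13.7% and 16.4% of TO members and 14.6% and 5.43% of testis members. With each cell thinned to 1500 UMIs, Clec3b was detected in 58 of 290 TO 1 members and 10.8% of TO 2 members and in 70.0% and 76.1% of testis members, against at most 0.885% of non-stromal cells in any library. Clec3b is a gene of the rule, so these shares are a description.

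Many cells lay close to the limits. Cells that met all else but had only 1 of the 4 genes numbered 390, 249, 135 and 24 in TO 1, TO 2, testis 1 and testis 2. With 7 UMIs of the matrix genes, just inside the limit, there were 43, 36, 39 and 15 cells, and with 8 UMIs, just outside, there were 45, 31, 31 and 13. The matrix limit alone turned away 1051 and 2419 cells in the TOs and 181 and 342 in the testes.

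Between conditions, many more genes were lower than higher in the TO members, and most of the lower ones stood higher still in the non-stromal cells of the testes. Counts were summed over the members of each library and tested with edgeR's quasi-likelihood test, and calls needed an adjusted p (Benjamini-Hochberg) under 0.01 with a log2 fold change beyond 1 in size. Genes at least 2 times as high in all other kept cells as in members, in either condition, were left out along with the genes of the rule, which left 10885 of 12330 genes fitted. Of the 10885 genes tested, 70 were higher (0.643%) and 1055 lower (9.69%) in the TO members, with a median log2 fold change of 0.03 over all of them. Of the lower genes, 999 stood higher in the non-stromal cells of the testes than in the testis members. Every called gene separated the 2 TO libraries from the 2 testis libraries. Separation was common, called or not: 2515 of the 3973 tested genes lower in non-stromal cells of both conditions had it.

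These counts moved with each library left out, which leaves 1 library in its group. The other group alone then gives the spread, as the TO libraries did when 1 of the testis libraries was left out. Without testis 2, the smaller of them, no gene was called by edgeR in either direction, although 3192 genes had an unadjusted p below 0.05. Without testis 1, 17 genes were higher and 275 lower. Without TO 1, where Sertoli cell transcripts were most abundant, 115 genes were higher and 873 lower, and without TO 2, 171 and 895. From the germ cell transcripts in members and in all barcodes of a library, background was estimated at 66.4% and 24.97% of the UMIs of TO members and 63.3% and 47.7% of those of testis members. No background was removed from the levels and detection shares printed here. The estimate takes every germ cell marker in members as background. Zbtb16, one of these markers, stood at 47.9 and 52.0 CPM in TO members and at 42.7 and 36.5 CPM in the other cells, so the TO estimates are uncertain. The profile subtracted was that of all barcodes, stromal cells among them. With the background subtracted, which left 181513 UMIs in testis 2, no gene was called and 494 had an unadjusted p below 0.05. DESeq2, another count model, called 95 genes higher and 1037 lower. The part of germ cell transcripts in each lower gene was not tested.

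Genes known from spermatids led the lower genes. Hils1, which encodes a linker histone of spermatids, stood at 0 and 0.713 CPM in the TO members and at 390 and 338 CPM in the testis members. It had 1 UMI in all TO members and 594 in all testis members, a ratio of pooled CPM of 1038 with a 95% counting interval from 186 to 41052. In the non-stromal cells of the testes its level was 671 and 713 CPM, above that of the members. Akap3, an anchoring protein of the sperm tail, stood at 0 and 0.713 CPM against 165 and 113 CPM, and Tex48, Tmco5, Spata45, Spata46, Lyzl1, Cypt1, Cypt4, Gm9999, 1700001J03Rik and 1700061N14Rik completed the 12 lower genes with the largest change. Hils1, Spata46 and Cypt4 overlap Sgca, Nos1ap and Dpy19l2 on the other strand, and whether strand was used in counting is not given in the sources used here, so the values of overlapping genes are uncertain. Genes of cell division were lower as well, Ccnb1, Ccnb2, Birc5, Plk1 and Mcm7, out of 20 tested with a median of -0.33, against 9.69% lower among all genes tested. Each of the 5 stood higher in the non-stromal cells of the testes than in members.

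To describe the stromal cells apart from these, a restricted set was taken. Its genes had a level in non-stromal cells, pooled over libraries, below that of the members in both conditions. Of 3973 such genes, 39 were higher (0.982%) and 48 lower (1.21%) in the TO members, with a median log2 fold change of 0.29. The margin could be small. Tmem267, among the 48, stood at 106 and 36.5 CPM in testis members and at 117 and 66.4 CPM in the non-stromal cells of the testes. This restriction and the filter above use the level in TO members, so they also take out genes that were low there but above other cells in the testes, as they did Tgfbr2 and Pi16, described below. The 2 counts are therefore given without reading anything from their balance. Leaving out the doublets kept 36 and 45 of them, DESeq2 called 31 and 41, and a limit on matrix genes set per 10000 UMIs kept 12 and 14. With no limit on matrix genes 29 and 28 of them were called. Without testis 1, 8 and 14 were called and without testis 2 none, while the direction of every gene with a value held in both cases. With the background subtracted none was called, and all 38 higher and all 44 lower genes with a value kept their direction.

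**Figure D3:**
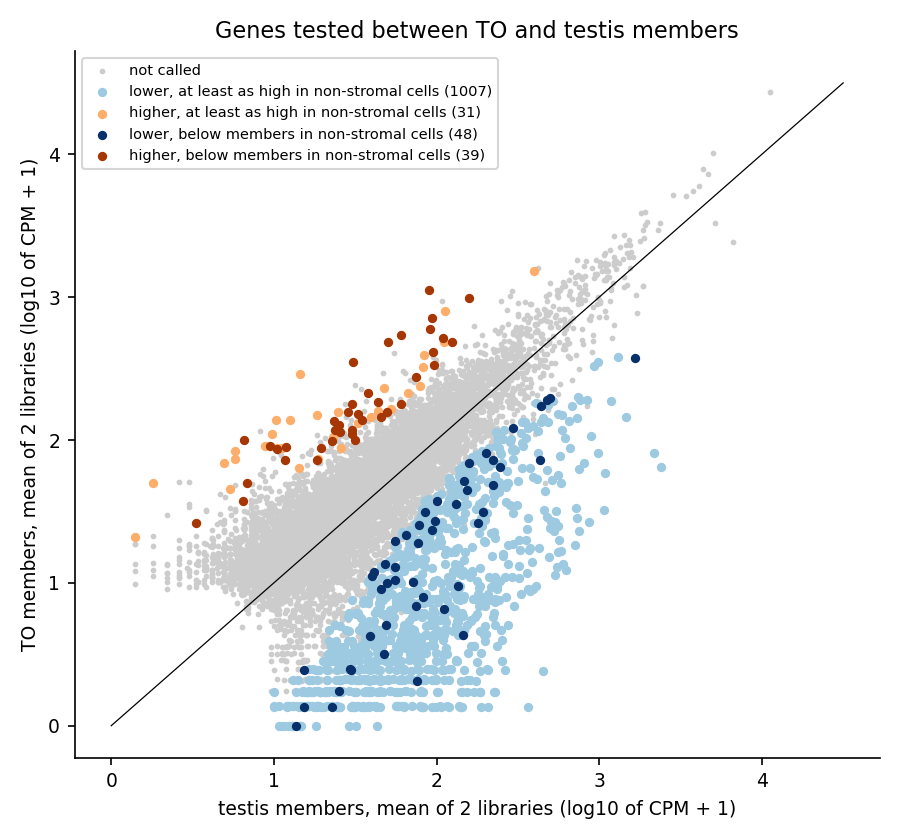
Mean level of each tested gene in testis members (x axis) and TO members (y axis), both as log10 of CPM + 1, with the line of equality. The light blue points are the 1007 lower genes at least as high in non-stromal cells of either condition, and the dark points are the 48 lower and 39 higher genes that stayed below the members there.

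Tnxb, which encodes the matrix glycoprotein tenascin-X, stood at 7.49 and 4.28 CPM in the TOs and 65.4 and 82.2 CPM in the testes (log2 fold change -3.83 ± 0.42, SE). Dpt, the collagen-binding protein dermatopontin, stood at 1.5 and 4.99 CPM against 42.0 and 33.5 CPM (-3.73 ± 0.61). The secreted matrix protein Ecm1 fell from 518 and 350.1 CPM in the testes to 74.9 and 67.0 CPM in the TOs (-2.85 ± 0.32). In each of these both TO values lay far below both testis values. Ecm2 stood at 68.9 and 57.7 CPM against 273 and 213 CPM (-2.18 ± 0.28), and Hmcn1, the basement membrane protein hemicentin-1, at 38.2 and 22.1 CPM against 123 and 262 CPM (-2.84 ± 0.45). Vit, which encodes the matrix protein vitrin, stood at 4.49 and 2.14 CPM against 153 and 134 CPM (-5.63 ± 0.41), although its level in the non-stromal cells of the testes was also 78.2 and 86.0 CPM. The adjusted p-values of these genes in edgeR's quasi-likelihood test lay between 0.000364 and 0.0042. The rule's limit on matrix genes counted raw UMIs, and the median member held more UMIs in both TO libraries than in either testis library. The part of that limit in the levels of matrix genes, here and below, was not tested.

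The major collagens did not pass the test between TO and testis members. Some of them changed differently in matrix stromal cells, as given below. Of 21 collagen genes tested, 2 were lower and none higher, with a median of -0.37. Lower genes were 9.69% of all genes tested and 1.21% of those that stayed below the members in non-stromal cells, which held 20 of the 21. The 2 were Col5a3, a minor chain of collagen V, at 2.25 and 0.713 CPM against 35.5 and 21.3 CPM (-4.48 ± 0.68), and Col6a6, a chain of collagen VI, at 5.99 and 2.14 CPM against 55.7 and 39.6 CPM (-3.80 ± 0.55). Their changes were -5.33 and -4.61 without TO 1. Col1a1 stood at 641 and 953 CPM in the TOs and at 1529.7 and 633 CPM in the testes, and Col3a1 at 1048 and 1358 CPM against 2591 and 1120.3 CPM. For both, testis 2 lay near or below the TOs and testis 1 above, so that the groups overlapped (adjusted p = 0.385 and 0.266 in edgeR's test).

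Among 24 proteoglycan and matricellular genes tested, 3 were lower and 1 higher, with a median of -0.77. The same 9.69% and 1.21% apply to the lower ones, 21 of the 24 being in the restricted set, and 0.643% and 0.982% to the higher one. The lower ones were Tnxb, the thrombospondin Thbs3 (25.5 and 26.4 against 114 and 79.2 CPM) and Ogn, the small proteoglycan osteoglycin (147 and 197 against 417 and 454 CPM). Sparc, the most abundant of the list, stood at 3139, 2782, 3014 and 1559 CPM in TO 1, TO 2, testis 1 and testis 2. Of 14 elastic fibre genes, 1 was lower, against the same 9.69% and 1.21%. Their median was -0.79, with 12 of 14 values below 0, against medians of 0.03 over all genes tested and 0.29 in the restricted set. Mfap5, a microfibril glycoprotein, was the called gene, at 42.0 and 53.5 CPM against 161 and 283 CPM (-2.40 ± 0.36). The latent TGF-beta binding protein Ltbp4 stood at 235 and 258 CPM against 716 and 426 CPM without passing (edgeR adjusted p = 0.0212), and Fbn1, the microfibril backbone fibrillin-1, at 86.2 and 107 CPM against 253 and 180 CPM (edgeR adjusted p = 0.0135). The matrix proteases and their inhibitors gave 1 higher gene of 24, Timp1, against 0.643% of all genes tested and 0.982% of the restricted set, and a median of 0.01. The protease Adamts5, the most abundant of them in testis members, stood at 689 and 768 CPM against 1056 and 1160 CPM.

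**Figure D4:**
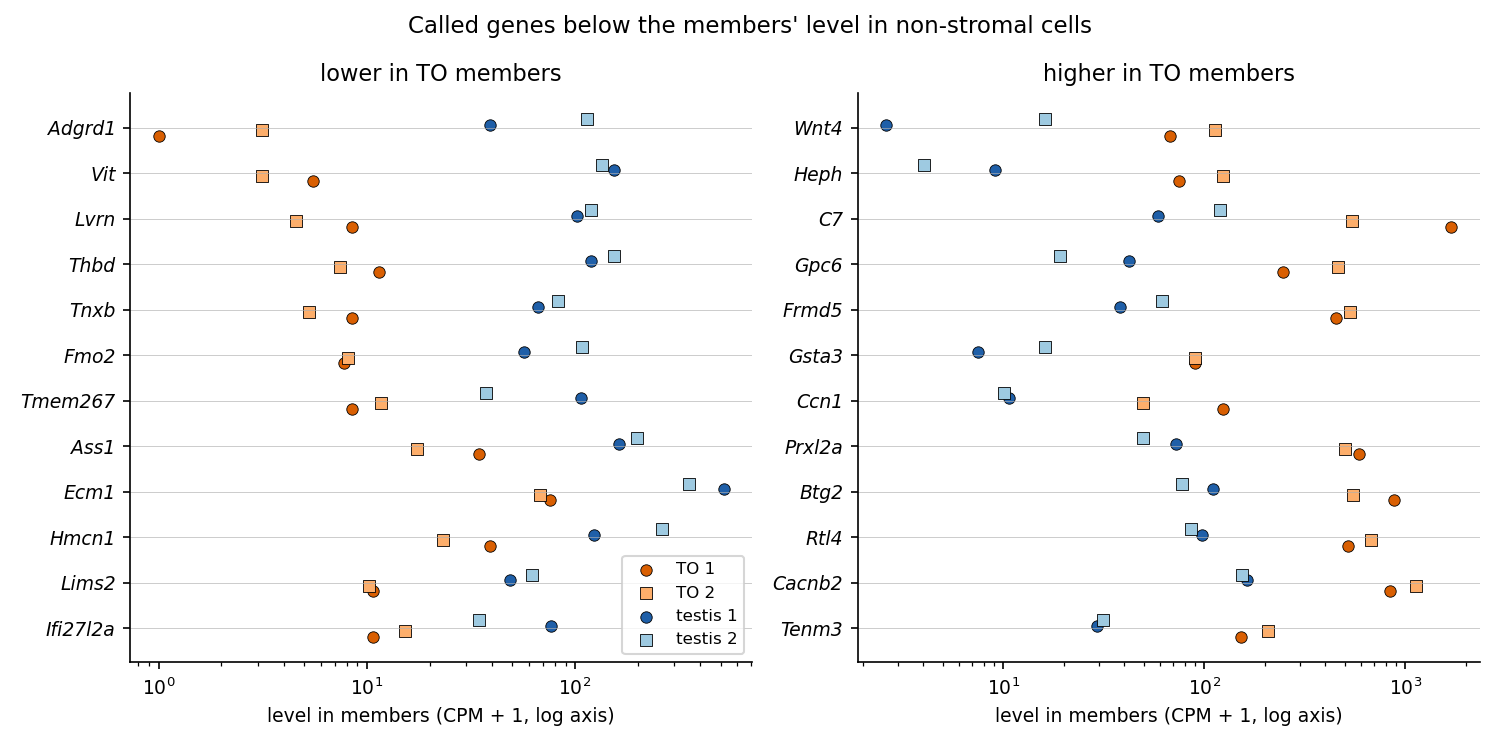
Levels in members (CPM + 1, log axis) of the 12 genes with the largest fall and the 12 with the largest rise in the TOs among those lower in non-stromal cells and with at least 50 CPM in either condition. In each row the 2 TO points and the 2 testis points do not overlap, which the choice of genes required. Ecm1 lies at 67.0 to 74.9 CPM in the TOs and 350.1 to 518 CPM in the testes.

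Thbd, the anticoagulant receptor thrombomodulin, stood at 10.5 and 6.42 CPM in the TO members and 118 and 152 CPM in the testis members (-4.19 ± 0.37, edgeR adjusted p = 0.000544). Lvrn, a membrane aminopeptidase, stood at 7.49 and 3.56 CPM against 101 and 119 CPM (-4.50 ± 0.41). The adhesion receptor Adgrd1 had 3 UMIs in the TO members and 84 in the testis members, a ratio of pooled CPM of 48.9 with a 95% counting interval from 16.2 to 242. All 3 were in TO 2, and the fitted log2 fold change of -6.05 ran from -5.11 without TO 1 to -9.13 without TO 2. S100a6, a calcium-binding protein and the most abundant of these 48 genes, stood at 391 and 355 CPM against 1575 and 1754 CPM (-2.38 ± 0.33). Both TO values lay far below both testis values, and non-stromal cells of the TOs held 228 and 150 CPM. The urea cycle enzyme Ass1 stood at 33.7 and 16.4 CPM against 161 and 198 CPM (-3.06 ± 0.38), and the flavin monooxygenase Fmo2 at 6.74 and 7.13 CPM against 55.7 and 107 CPM (-3.67 ± 0.46). The axon guidance ligand Ntn1 and the ectonucleotidase Entpd2 were lower as well, by 2.64 and 1.51 on the log2 scale. Dpt, Hmcn1, Ecm2, Thbs3, Ogn, Penk and Eng overlap a gene on the other strand.

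Of 28 genes that mark progenitor-like and fibroblast cells of the interstitium, 23 were not called, 3 were lower and 2 higher, with a median of -0.09 against 0.03 over all genes tested. Lower genes were 9.69% of all genes tested and 1.21% of the restricted set, which held 23 of the 28, and higher genes 0.643% and 0.982%. Penk, the precursor of enkephalin peptides, stood at 214 and 168 CPM in the TO members and 566 and 393 CPM in the testis members (-1.57 ± 0.31). Htra3, a secreted serine protease, stood at 80.2 and 62.0 CPM against 207 and 234 CPM (-1.85 ± 0.27), and Gfra2, a receptor for neurturin, at 0.749 and 2.14 CPM against 13.7 and 27.4 CPM. Gfra2 stood higher in the non-stromal cells of the testes, at 29.2 and 38.2 CPM, than in members. Gpx3, a secreted glutathione peroxidase, rose from 12.9 and 30.4 CPM to 87.6 and 108 CPM (2.18 ± 0.44), and the cadherin Cdh11 from 5.65 and 3.04 CPM to 33.7 and 54.9 CPM (2.91 ± 0.57), with 5.65 and 5.05 CPM in the non-stromal cells of the testes. Without testis 1 their changes were 1.56 and 3.71. Pi16, a marker of a fibroblast class found across tissues, was left out by the filter on other cells and stood at 0 and 0.713 CPM in the TO members against 65.4 and 124.8 CPM in the testis members. The transcription factors of the interstitial lineage did not pass: Tcf21 stood at 175, 354, 161 and 183 CPM and Nr2f2 at 709, 1067, 343 and 405 CPM. Cd34, a sialomucin of stromal progenitors, stood at 243 and 310.1 CPM against 354 and 326 CPM (edgeR adjusted p = 0.242).

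Meg3, a maternally expressed noncoding RNA of an imprinted cluster, stood at 216 and 174 CPM in the TO members and 571 and 423 CPM in the testis members (-1.59 ± 0.30). Rian, transcribed from the same cluster, stood at 24.7 and 19.96 CPM against 75.1 and 110 CPM (-2.22 ± 0.34). Dlk1, a paternally expressed gene of that cluster, stood at 3.00 and 8.55 CPM against 29.1 and 33.5 CPM and missed the threshold (edgeR adjusted p = 0.0171). Of the 17 genes of the growth factor and imprinted list, 1 was lower, Meg3, and none higher, with a median of 0.20, against lower shares of 9.69% and 1.21%. Igf1 stood at 632, 849, 802 and 977 CPM in TO 1, TO 2, testis 1 and testis 2, and Igfbp6 at 722, 820, 1853 and 1583 CPM (edgeR adjusted p = 0.366 and 0.0263).

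In Wnt signalling secreted ligands bind Frizzled receptors, and R-spondins amplify the response. Wnt4, a ligand of gonad development, stood at 66.7 and 112 CPM in the TO members and at 1.61 and 15.2 CPM in the testis members (3.91 ± 0.77), and Rspo3 at 35.2 and 62.0 CPM against 5.65 and 6.09 CPM (2.83 ± 0.55). Testis members held 7 UMIs of Wnt4 in all, and its change was 2.44 without testis 1 and 5.49 without testis 2, neither of them called. The non-stromal cells of the TOs held 43.3 and 50.5 CPM of it. These were the 2 called genes of 17 tested in the Wnt list, whose median was 0.08, against 0.643% higher among all genes tested and 0.982% in the restricted set. C7, a component of the terminal complement complex, stood at 1692 and 540.3 CPM against 58.1 and 119 CPM (3.50 ± 0.63), so that TO 1 lay well above TO 2 and both above the testes. Its change was 2.51 without TO 1 and 4.14 without TO 2. Of 11 complement genes, C7 rose and Cd55b fell, with a median of 0.14, against 0.643% higher and 9.69% lower among all genes tested and 0.982% and 1.21% in the restricted set. Cd55b stood at 151 and 167 CPM in the non-stromal cells of the testes. Ccn1, a matricellular protein, rose from 9.69 and 9.13 CPM to 123 and 48.5 CPM (2.91 ± 0.57), with changes of 2.16 without TO 1 and 3.45 without TO 2. The adjusted p-values of Wnt4, Rspo3, C7 and Ccn1 in edgeR's test were 0.00917, 0.00868, 0.00609 and 0.00905.

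Gpc6, a glypican, which is a heparan sulfate proteoglycan of the cell surface, stood at 245 and 459 CPM in the TO members and 41.2 and 18.3 CPM in the testis members (3.18 ± 0.48), and the glypican Gpc4 at 100.4 and 118 CPM against 11.3 and 6.09 CPM (3.23 ± 0.39, and 4.03 without testis 1). The glypican Gpc3 stood at 27.0 and 57.0 CPM against 119 and 124.8 CPM and missed the threshold (-1.74 ± 0.40, edgeR adjusted p = 0.0183). The change of Gpc6 ran from 2.68 without TO 2 to 4.16 without testis 1. Gpc4 was as high in the non-stromal cells of the TOs, at 126 and 154 CPM, and Gpc6 was not, at 20.5 and 28.2 CPM. Heph, an iron-exporting ferroxidase, stood at 74.2 and 123 CPM against 8.07 and 3.04 CPM (3.62 ± 0.52, and 4.86 without testis 1), and Frmd5 at 448 and 526 CPM against 37.1 and 60.9 CPM (3.18 ± 0.35). Cacnb2, a calcium channel subunit, stood at 836 and 1121 CPM against 162 and 152 CPM (2.41 ± 0.33). The matrix protein Matn2 (175 and 129 against 36.3 and 27.4 CPM) and the protease inhibitors Timp1 (124 and 102 against 27.4 and 21.3 CPM) and Serpina3n (166 and 146 against 37.1 and 18.3 CPM) were also higher. Dync1i1, B3galt1, Clca3a1, Serpinb6b, Plxnc1 and Tspan8 were among the 12 higher genes with the largest change, but each was at least as high in the pooled non-stromal cells of at least 1 condition as in members. Dync1i1, B3galt1, Clca3a1, Heph, Tspan8, Cacnb2, Timp1, Matn2, Gsta3, Zfp36, Lmcd1 and Rspo3 overlap a gene on the other strand.

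Immediate-early genes, which cells switch on within minutes of a stimulus, formed the list with the highest median. Of 23 tested, 3 were higher, against 0.643% of all genes tested and 0.982% of the restricted set, and none lower. Their median was 1.37 with 21 values above 0, against medians of 0.03 over all genes tested and 0.29 in the restricted set. Btg2, an antiproliferative gene, stood at 872 and 547 CPM in the TO members and 109 and 76.1 CPM in the testis members (2.67 ± 0.36), Zfp36, an RNA-destabilising protein, at 443 and 383 CPM against 117 and 70.0 CPM (1.86 ± 0.33), and the heat shock gene Hspa1b at 178 and 93.4 CPM against 26.6 and 18.3 CPM (2.26 ± 0.42). Fos stood at 1226 and 823 CPM against 424 and 140 CPM and Junb at 1652 and 1540.4 CPM against 542 and 295 CPM, without overlap and without passing (edgeR adjusted p = 0.0706 and 0.0204). Non-stromal cells of the TOs held 249 and 175 CPM of Btg2, 118 and 137 of Zfp36 and 59.0 and 33.7 of Hspa1b. In those of the testes the levels were 25.6 and 24.8, 11.6 and 10.3, and 2.13 and 2.54 CPM. The mitochondrial share was also higher in the TO members, at the medians given above. Its part in these differences, and that of the preparation of the cells, was not tested.

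Antioxidant genes gave 1 higher, Gclc, and 1 lower, Gpx4, of 23 tested, with a median of 0.11, against 0.643% higher and 9.69% lower among all genes tested and 0.982% and 1.21% in the restricted set. Gclc, which limits glutathione synthesis, rose from 37.1 and 36.5 CPM in the testes to 222 and 204 CPM in the TOs (2.30 ± 0.28, edgeR adjusted p = 0.00153), and stood at 133 and 129 CPM in the non-stromal cells of the TOs. Gsta3, a glutathione transferase outside that list, stood at 89.1 and 88.4 CPM against 6.46 and 15.2 CPM (3.08 ± 0.44, and 2.42 without testis 1), and Prxl2a, a peroxiredoxin-like protein, at 587 and 498 CPM against 71.0 and 48.7 CPM (2.89 ± 0.32). Prxl2a stood at 419 and 332 CPM in the non-stromal cells of the TOs and at 69.8 and 47.8 CPM in those of the testes. Gpx4, the phospholipid peroxidase that also builds the sperm midpiece, stood at 348 and 349 CPM against 967 and 999 CPM, and at 1439 and 1915 CPM in the non-stromal cells of the testes.

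Several pathways gave few calls or none. Of all genes tested 0.643% were higher and 9.69% lower, and of the restricted set 0.982% and 1.21%. Nothing is read about these pathways from counts in lists this short. In the TGF-beta and BMP list 2 of 22 genes were lower, the receptor Tgfbr2 (26.2 and 22.1 against 59.7 and 113 CPM) and the matrix protein Tgfbi (12.7 and 15.7 against 63.0 and 45.7 CPM), with a median of 0.06, against 9.69% of all genes tested and 1.21% of the restricted set. Tgfbr2 stood at 64.6 and 105 CPM in the non-stromal cells of the TOs, above the members, and Tgfbi at 10.6 and 24.0 CPM. The co-receptor Eng, outside the list, was lower too (10.5 and 11.4 against 37.9 and 42.6 CPM). None of 12 PDGF and hedgehog genes passed (median 0.37), and the hedgehog receptor and target Ptch1 stood at 125.1, 246, 75.9 and 63.9 CPM in TO 1, TO 2, testis 1 and testis 2. Gas1, a hedgehog co-receptor and the most abundant of that list, stood at 325, 288, 76.7 and 198 CPM. None of 21 chemokines, cytokines and growth factors passed, with a median of 0.53, and the chemokine Cxcl12 stood at 127 and 174 CPM against 303 and 475 CPM (edgeR adjusted p = 0.0132). Of 15 adipogenic and lipid genes 1 was lower, the preadipocyte factor Zfp423 (36.0 and 37.1 against 90.4 and 110 CPM), with a median of 0.18, against the same shares, and Apoe stood at 2184, 1471, 873 and 1023 CPM. The 14 steroid receptor and target genes (median -0.12) and the 10 smooth muscle genes (median 0.19) had no call, against the same shares. Neither had the 16 hypoxia-response genes (median -0.04). The most abundant genes of these lists were Mt1, Cald1 and Ldha, in that order. Ldha stood at 141 and 146 CPM against 414 and 265 CPM.

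Promoter sequences were searched for the core of the motif of EBF factors, since Ebf1 marks these cells. The motif searched was CCCNNGGG, which reads the same on both strands, in the window from 250 bases before to 50 bases after each annotated start in RefSeq (GRCm38.p6). A window with the motif was found for 10 of the 34 lower genes that had an entry, or 29.4%, for 5 of 28 higher genes, or 17.9%, and for 15.4% of the 27025 genes with an entry. The counts are small, and a match does not show a bound site. The 27025 genes were not limited to those tested here, so their share is not a matched baseline. The windows of the 2 lower genes with a match that were highest in testis members are shown because both fell in the TOs, with the motif in capitals, on the plus strand at chr12:109545148-109545447 for Meg3 and chr13:49504560-49504859 for Ecm2.
Meg3: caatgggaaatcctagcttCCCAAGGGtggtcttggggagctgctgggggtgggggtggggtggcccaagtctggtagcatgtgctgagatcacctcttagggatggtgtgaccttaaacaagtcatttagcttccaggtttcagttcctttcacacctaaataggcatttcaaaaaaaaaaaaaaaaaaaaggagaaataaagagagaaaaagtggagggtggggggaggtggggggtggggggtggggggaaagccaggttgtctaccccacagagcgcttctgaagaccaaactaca
Ecm2: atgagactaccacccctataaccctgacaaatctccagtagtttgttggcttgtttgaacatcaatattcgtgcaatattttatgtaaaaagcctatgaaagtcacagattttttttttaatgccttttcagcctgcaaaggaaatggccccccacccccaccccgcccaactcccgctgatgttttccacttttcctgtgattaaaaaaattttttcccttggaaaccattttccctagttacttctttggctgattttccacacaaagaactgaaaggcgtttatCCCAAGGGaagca
The letters matched were CCCAAGGG in both, at bases 20 to 27 of the Meg3 window and bases 288 to 295 of the Ecm2 window. Meg3 spans chr12:109541001-109571726 in the annotation used for coordinates, so its window belongs to a RefSeq start inside the gene.

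Few genes stood far above all other cells in members of both conditions. The counts below include genes of the rule, among them Sned1, and are given as a description. Of genes with at least 50 CPM, 351 stood 5 or more times as high in members as in all other cells in the testes, and 2 in the TOs, where most of the other cells also had Dcn or Pdgfra and no Ptprc. Only Sned1, a gene of the rule, Pcdh19 and Ppl reached 5 times in both conditions among all genes fitted, and neither of the last pair reached 50 CPM. Pcdh19, a protocadherin, stood at 8.99, 25.7, 21.0 and 15.2 CPM in TO 1, TO 2, testis 1 and testis 2, and Ppl, the desmosomal plakin periplakin, at 8.24, 4.99, 12.1 and 9.13 CPM.

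The difference between conditions was then set against that in the other stromal groups, with a test of the difference itself in a fit with library as a term. Against contractile stromal cells, the TO-testis difference differed for 171 of 11456 genes (1.49%), of which 126 had a lower value in members. Against matrix stromal cells it differed for 56 of 11332 genes (0.494%), of which 48 had a lower value in members. Col1a1, Col1a2, Col5a1, Col6a1, Col6a2 and Col6a3 were among those with a lower value. Col1a1 changed by -0.67 in members and 0.70 in matrix stromal cells, and Col1a2 by -0.52 and 0.78. The 3 groups come from the same libraries. DESeq2 called 54 and 8 genes.

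The groups compared here were split by the raw UMIs of matrix genes, and the depth of members differed between libraries, so the part of that split in the differences was not tested. Of the 48 lower genes, the difference from matrix stromal cells was called for Thbd, Ass1, Htra3, Mfap5 and Aqp2, against 0.494% of all genes tested, and the 48 had been chosen for their fall in members. Thbd changed by -4.19 in members and -2.35 in matrix stromal cells, where it stood at 21.4 and 24.8 CPM in the TOs and 80.1 and 163 CPM in the testes. Ass1 changed by -3.06 and -1.11, Htra3 by -1.85 and -0.25, and Mfap5 by -2.40 and -1.41. Of the 48 lower genes, 46 had a value in matrix stromal cells, and all 46 were lower in the TOs there too. The median was -1.67 in matrix stromal cells and -2.45 in members. All 39 higher genes were also higher there. None of the 39 higher genes was called for a difference between members and matrix stromal cells, although Rtl4 missed only the limit on size, at 0.995 (edgeR adjusted p = 0.00355). C7 changed by 3.50 in members and 3.57 in matrix stromal cells, and Btg2 by 2.67 and 2.85.

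Against contractile stromal cells the difference was called for 14 of the 48 lower and 10 of the 39 higher genes, against 1.49% of all genes tested. The 48 and 39 genes had been chosen for a large change in members. Ecm1 changed by -2.85 in members and by -0.05 in contractile cells, where it stood at 101 and 28.6 CPM in the TOs and 63.7 and 58.6 CPM in the testes. Penk changed by -1.57 and 0.25, Thbs3 by -2.15 and -0.25, and Ecm2 by -2.18 and -0.57, and the difference was called for each. The rise of C7 was larger in contractile cells, at 2730 and 1887 CPM in contractile cells of the TOs and 5.12 and 7.74 CPM in those of the testes. Adam23, a membrane protein of the ADAM family, rose by 2.03 in members and by 6.05 in contractile cells. Ccn1 and Lmcd1 rose in members by 2.91 and 2.28 and changed by -0.19 and -0.61 in contractile cells.

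**Figure D5:**
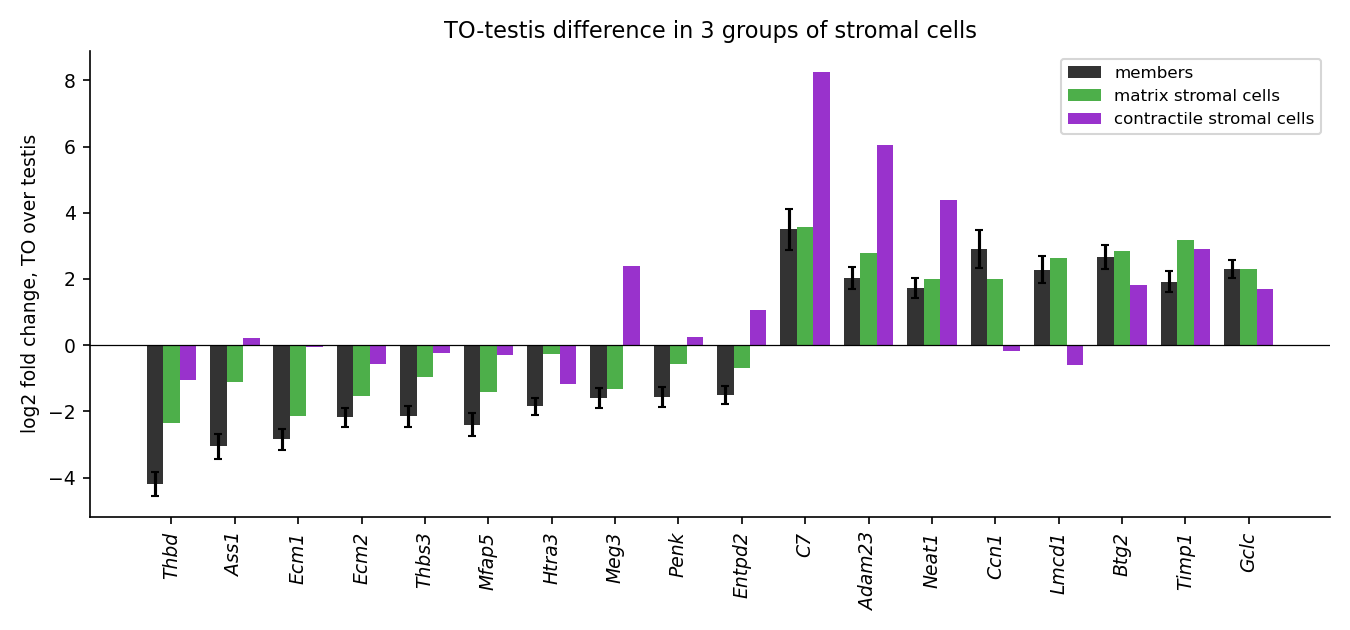
Log2 fold change of TO over testis for 18 genes in members (black, error bars are SE), matrix stromal cells (green) and contractile stromal cells (purple), all from edgeR. Ecm1 lies at -2.85 in members, -2.14 in matrix stromal cells and -0.05 in contractile cells, and C7 is above 0 in all 3 groups.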

How the data were processed

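UMI count matrices of 4 single-cell RNA-seq libraries were used as deposited. The authors made these counts with Cell Ranger 7.1.0 on mm10, per the submitters' processing notes, and the deposited matrices hold 32285 genes and no cell names or doublet calls. Barcodes were kept with 1000 to 5000 genes, no more than 20000 UMIs and a mitochondrial share up to 10%, which left 20222 of 27134 TO and 21262 of 24005 testis barcodes. The study removed doublets with DoubletFinder. Here Scrublet (scanpy 1.11.5) marked them, they were kept, and leaving them out was an alternative. The limit on matrix genes was read as raw UMIs, and a reading per 10000 UMIs was an added alternative.

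Counts were summed over members per library and tested with edgeR 4.0.16 (R 4.3.3, quasi-likelihood F test, TMM, filterByExpr), with p adjusted over all genes fitted. The study's thresholds on adjusted p and fold change were applied to these sums, since cells are not replicates, and its further limit on the size of the expression difference was not. DESeq2 1.42.0 was an alternative. Non-stromal cells are kept cells without the stromal requirements, Dcn or Pdgfra and no Ptprc. Coordinates and overlaps came from GENCODE vM21, which held 32235 of the gene IDs, and promoters from RefSeq. Tested on simulated data for the TO-testis comparison of members over 11180 genes, edgeR called 40% of genes changed 4-fold and 91% of those changed 8-fold, with 1 false call. For the difference from contractile cells it called 1% and 41%, with 1 false call.

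Genes named by rule were the 12 with the largest change in each direction with at least 50 CPM in either condition, up to 4 called genes (or the most abundant gene) of each of 18 lists, those enriched 5 times in both conditions, and for each cell group comparison the 6 with the largest difference and at least 50 CPM in members of either condition. All other genes named were chosen after their values were seen, among them the genes lower in non-stromal cells. The members and lists were chosen with earlier results of these data known. The 11 marker lists cover Sertoli, Leydig, macrophage, endothelial, pericyte, mesothelial and epithelial, Schwann and lymphocyte cells, spermatogonia, spermatocytes and spermatids. Some genes are not reported here.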

Additional observations from a re-analysis of the deposited data

Results flagged for a closer look

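For 12 genes the TO-testis difference in members differed from that in another stromal group of the same libraries, by edgeR's test of the interaction. Each value below is the log2 difference in members minus that in the other group.

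Against contractile stromal cells the difference was -10.56 for Ly6a, a surface antigen of progenitor cells. Ly6a stood at 368, 135, 293 and 228 CPM in members of TO 1, TO 2, testis 1 and testis 2, so that the groups overlapped, and at 203 and 81.4 CPM in contractile cells of the TOs. Contractile cells of the testes had 0 UMIs of it among 2270323, so its level there was at least 136-fold higher in the TOs against a floor of 3 counts over the group, and the fitted value depends on the prior count. Man1a, a Golgi mannosidase, gave -6.52 and also had 0 UMIs in contractile cells of the testes, a level at least 19.1-fold higher in the TOs. Slit2, a secreted guidance ligand, gave -5.22 with 3 UMIs there, a pooled ratio of 95.3 with a 95% counting interval from 32.3 to 465. Lum, the proteoglycan lumican, gave -4.89 with 2 UMIs there, a pooled ratio of 37.0 with an interval from 9.92 to 311. Efemp1, the matrix protein fibulin-3, gave -5.27, at 259, 287, 250.2 and 277 CPM in members and 151, 158, 1.46 and 6.64 CPM in contractile cells. Hmcn1 gave -5.22, with 24.5, 2.20, 3.66 and 0 CPM in contractile cells. Its value was -2.81 without TO 1, where it was not called, and -10.27 without testis 1. With each library left out, the value of Efemp1 ran from -6.49 to -4.44 and that of Lum from -7.15 to -4.57. Man1a, Slit2 and Hmcn1 overlap a gene on the other strand.

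Against matrix stromal cells the difference was -2.70 for Mrap, an accessory protein of melanocortin receptors, at 37.5, 34.9, 54.1 and 97.4 CPM in members and 42.2, 22.9, 15.1 and 8.80 CPM in matrix cells. Dync1i1, a dynein chain, gave 2.35, Sphkap 2.24, Zbtb7c -1.97, the potassium channel Kcnd2 1.87 and Thbd -1.86. Kcnd2 stood at 69.7, 287, 50.05 and 3.04 CPM in members, with testis 1 near TO 1. In matrix cells it stood at 24.3, 44.1, 45.3 and 0 CPM. Without testis 1, matrix cells of the testes held none of it, so the fitted value depends on the prior count. Its difference was then -4.85. That of Sphkap was 1.33 without TO 2 and 1.72 without testis 1, neither of them called, and that of Mrap was -1.87 without testis 2, where it was not called. Dync1i1 and Zbtb7c overlap a gene on the other strand.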

How the results depend on the processing

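Over 67 named genes and 1353 alternative values, 984 kept their direction and their side of the thresholds, 368 kept direction but were no longer called, and 1 reversed, Gpx4 at 0.50 with the background subtracted. Over 12 differences between cell groups and 84 alternative values, 58 kept both, 25 were no longer called and 1 reversed, Kcnd2, whose values ran from -4.85 without testis 1 to 2.24. With testis 1 left out, matrix cells of the testes had 0 CPM of Kcnd2. The cause of these moves was not tested.

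Genes higher in TO members numbered 389 without a low-count filter, 34 with genes left out at 1 times, 156 without the matrix limit, 308 at an adjusted p below 0.05, and, added after seeing the data, 23 with the matrix limit per 10000 UMIs, 39 with genes as high in non-stromal cells left out and 11 with only the others fitted. Genes lower numbered 1845 with none left out, 36 at 1 times and 561 with sums thinned to equal depth, and, added after seeing the data, 687, 52 and 54 under those same 3 settings. With the background subtracted both counts were 0. Leaving out each library gave 0 to 171 higher and 0 to 895 lower. Differences from contractile cells numbered 54 by DESeq2 and 108 to 190 with each library left out, and from matrix cells 8 by DESeq2 and 23 to 73. The member share, TO minus testis, was 15.4 points without the matrix limit and 0.558 with that limit per 10000 UMIs. It was -12.0 of cells with Dcn or Pdgfra and no Ptprc, 3.19 after thinning, and -1.27 to 1.71 with each library left out.

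TO and testis libraries shared only a number, with a correlation of 0.127 between same-numbered deviations. With the replicate block 325 genes were higher and 1516 lower. Testis 2 gave 92 members, the fewest of the libraries.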
